A study of Mus musculus with 4 samples.

Results

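The genes described here carry choline into the cell and build it into phosphatidylcholine: Slc44a1, Slc44a2, Slc5a7, Chka, Chkb, Pcyt1a, Pcyt1b, Chpt1, Cept1 and Pemt. They are 10 of 21938 annotated protein-coding genes, chosen by name for their place on this route, with earlier results of these data known. Their regions are all rows of the deposited list that overlap the span of each gene plus 5 kb on either side. That rule gave 26 of the 45855 regions of the list. The list comes from ChIP-seq of H3K9ac, the acetyl mark on lysine 9 of histone H3 that is found at promoters and enhancers in use. The cells were HT22, a permanent cell line derived from mouse hippocampal neurons. Cells were supplemented with 70 µM choline chloride or held at a control level of 5 µM choline chloride, for 48 h in both cases, in high-glucose medium with serum. Of the 4 libraries, 2 are of H3K9ac ChIP DNA and 2 of input DNA. Their labels do not tie a library to a choline level, and there is at most 1 ChIP library per level. The direction of each region was taken from the region names, which put the 5 level first and the 70 level second. No spread between cultures can be computed, so no difference between the levels is tested, and the read depth behind the regions is unknown.

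Choline enters cells through choline transporter-like proteins of the Slc44 family or, in cholinergic nerve endings, through the high-affinity carrier Slc5a7. Inside, it is phosphorylated by choline kinase, activated to CDP-choline by the CCT enzymes, which Pcyt1a and Pcyt1b encode, and joined to diacylglycerol by cholinephosphotransferase, the sequence known as the Kennedy pathway. Pemt reaches the same lipid from phosphatidylethanolamine, with methyl groups from S-adenosylmethionine, and is known mainly from liver.

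The regions that carry these results are shown as sequence (RefSeq GRCm38.p6, the build of mm10). For each gene the highest-scoring region with a stretch outside annotated UTRs was taken, and where that region lay away from the transcript starts, a start-site region of the same gene was set beside it. Capitals mark CpG dinucleotides, the feature in which the start-site and the distant regions differ most visibly. Chpt1 and Slc5a7 have no region, and the regions at Cept1 lie wholly or mostly in UTRs, so none of these is printed.
Slc44a1 upstream of the start, chr4:53439964-53440132, plus strand: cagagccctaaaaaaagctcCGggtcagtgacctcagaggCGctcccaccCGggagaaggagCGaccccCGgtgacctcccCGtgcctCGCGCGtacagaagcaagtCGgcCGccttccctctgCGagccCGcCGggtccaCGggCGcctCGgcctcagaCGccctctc
Slc44a2 near the start, chr9:21321477-21321629, plus strand: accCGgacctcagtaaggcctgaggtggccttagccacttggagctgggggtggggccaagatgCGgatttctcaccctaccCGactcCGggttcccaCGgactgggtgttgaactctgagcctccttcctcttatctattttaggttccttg
Slc44a2 intron, chr9:21333069-21333228, plus strand: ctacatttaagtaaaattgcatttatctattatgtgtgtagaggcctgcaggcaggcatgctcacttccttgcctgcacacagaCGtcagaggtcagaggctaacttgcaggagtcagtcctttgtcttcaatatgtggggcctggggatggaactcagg
Chka first coding exon, chr19:3852076-3852153, plus strand: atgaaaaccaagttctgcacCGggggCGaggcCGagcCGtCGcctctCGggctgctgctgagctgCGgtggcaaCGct
Chkb coding exon 2 and its surroundings, chr15:89428952-89429140, plus strand: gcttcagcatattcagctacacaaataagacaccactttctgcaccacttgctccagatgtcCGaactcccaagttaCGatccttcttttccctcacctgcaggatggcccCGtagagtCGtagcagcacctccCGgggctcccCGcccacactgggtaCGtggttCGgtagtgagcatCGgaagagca
Pcyt1a upstream of the start, chr16:32430395-32430621, plus strand: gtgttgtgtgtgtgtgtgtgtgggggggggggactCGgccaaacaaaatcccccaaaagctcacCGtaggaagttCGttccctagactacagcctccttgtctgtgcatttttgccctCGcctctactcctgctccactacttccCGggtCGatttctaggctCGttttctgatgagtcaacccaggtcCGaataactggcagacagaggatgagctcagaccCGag
Pcyt1a intron 3, chr16:32456189-32456372, plus strand: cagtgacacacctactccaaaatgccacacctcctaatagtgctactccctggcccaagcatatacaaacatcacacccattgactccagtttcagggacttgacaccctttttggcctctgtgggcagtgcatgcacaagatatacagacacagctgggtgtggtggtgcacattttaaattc
Pcyt1b intron 1, chrX:93701071-93701195, plus strand: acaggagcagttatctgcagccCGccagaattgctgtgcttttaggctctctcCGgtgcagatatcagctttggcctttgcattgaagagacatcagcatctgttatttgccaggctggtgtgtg
Pemt at the start, chr11:60046490-60046660, plus strand: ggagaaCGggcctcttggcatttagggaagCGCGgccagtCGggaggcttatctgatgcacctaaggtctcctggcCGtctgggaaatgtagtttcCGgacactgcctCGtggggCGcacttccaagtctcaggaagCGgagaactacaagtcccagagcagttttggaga
Pemt intron 1, chr11:60033842-60034071, plus strand: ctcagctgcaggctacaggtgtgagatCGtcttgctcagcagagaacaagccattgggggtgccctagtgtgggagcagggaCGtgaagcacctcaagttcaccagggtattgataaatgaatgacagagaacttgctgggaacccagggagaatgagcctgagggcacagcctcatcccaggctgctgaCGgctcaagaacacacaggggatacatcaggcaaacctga

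The Chka stretch begins at the annotated start codon of Chka-201. The stretch upstream of Slc44a1 has 18 CpG sites in 169 bases and that of Chka 8 in 78. The Pcyt1a pair has 9 CpG sites in 227 bases upstream of the start and 0 in 184 bases of intron 3. The Pemt pair has 9 in 171 bases at the start and 3 in 230 bases of intron 1.

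All 26 regions were called at 70 µM. So were 99.2% of the regions of the whole list, 45495 against 360 at 5 µM, so this says little about the route. Of the 10 genes, 8 had at least 1 region. The exceptions were Slc5a7 and Chpt1. Of all protein-coding genes, 60.7% had a 70 µM region under the same rule, and against that share a count of 8 among 10 genes says little about the route in particular. A 5 µM region was present at 0 of the 10 genes, against 1.75% of all protein-coding genes. Within 1 kb of an annotated transcript start, 7 of the 10 genes had a 70 µM region, against 39.2% of all protein-coding genes, and 0 had a 5 µM region, against 0.880%. A region at or above the list's median score of 6.64 (authors' deposited table) was present at 4 of the 10 genes, against 43.6% of all protein-coding genes. These 4 were Slc44a2, Pcyt1a, Cept1 and Pemt, with Cept1 among them only through regions in the added 5 kb. These scores were computed by the authors; bdgdiff of MACS2 writes a log10 likelihood ratio of the conditions there, although the file does not name the column. Regions alike at both levels are not listed, so a gene without a region may still carry H3K9ac.

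Long genes and genes on some chromosomes held regions more often. Protein-coding genes were split into 4 classes of equal size by the length of span plus flanks. In the longest class, over 55.1 kb, 78.0% had a 70 µM region, in the class from 27.4 to 55.1 kb 69.2%, and in the shortest, up to 16.5 kb, 38.7%. Of the 10 genes, 5 fall in the longest class, and 4 of these had a region. A further 4 fall in the class below, and 3 of these had one. Chkb, with 13.5 kb, is in the shortest class. Among the chromosomes that hold the 10 genes, the share of genes with a 70 µM region was highest on chromosome 15 (87.6%), where Chkb lies, and lowest on X (30.8%), where Pcyt1b lies.

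**Figure D1:**
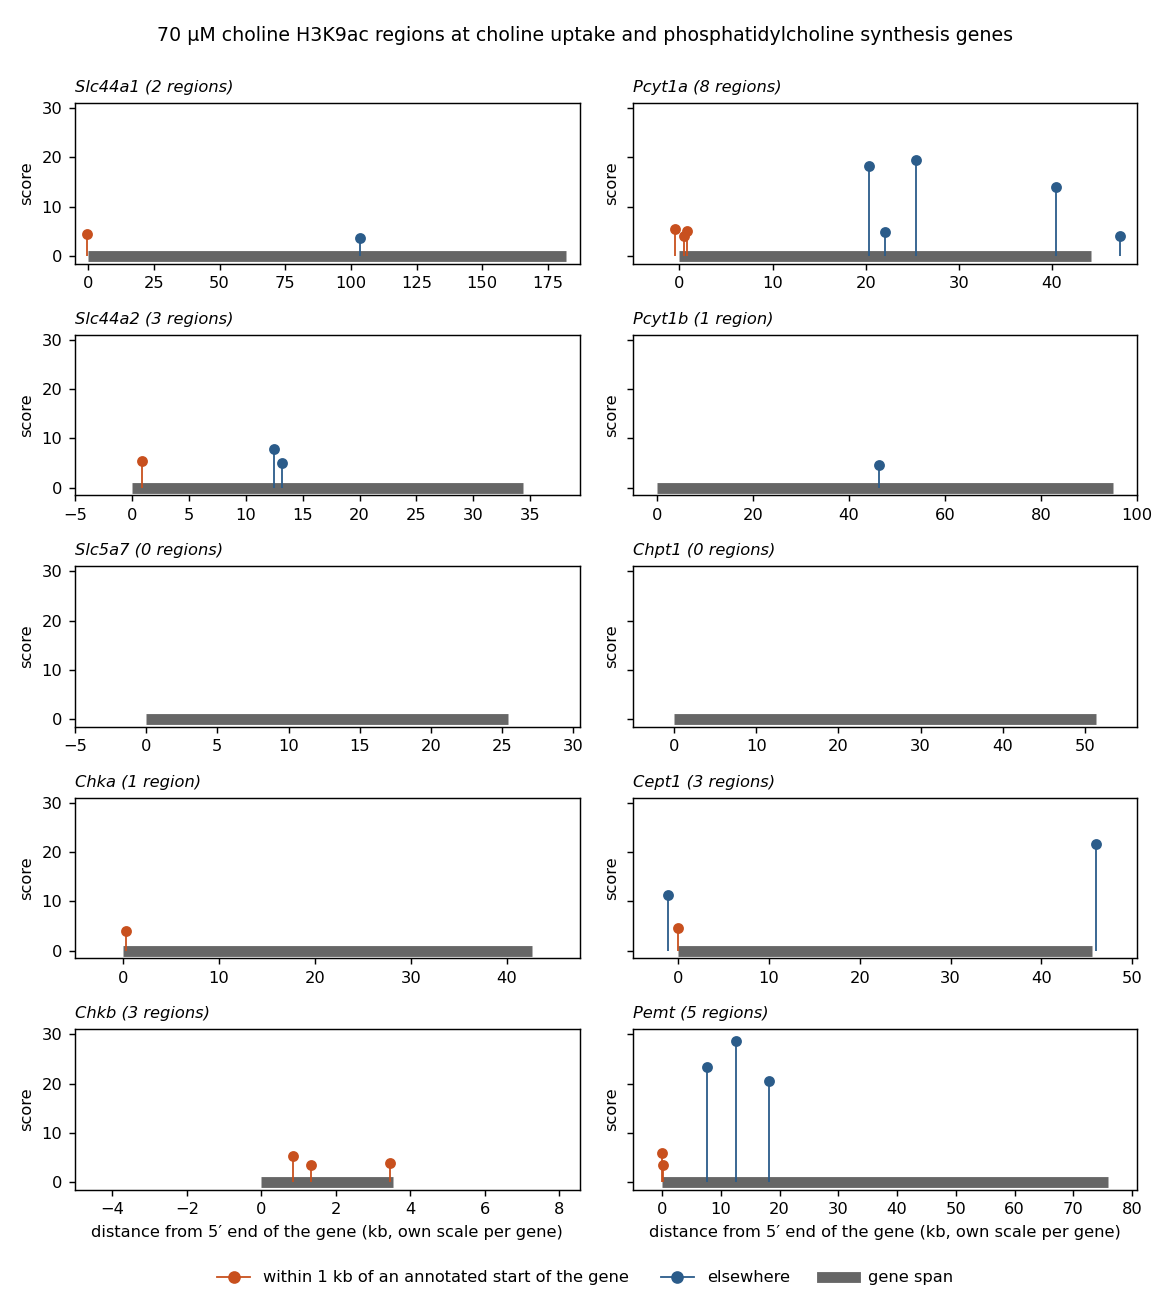
Score of each 70 µM region in the authors' deposited table (vertical axis) against its distance from the 5′ end of the gene in kb (horizontal axis, scaled for each gene), with the gene span as a grey bar. Orange regions lie within 1 kb of an annotated start of the gene and stay below 6, while the blue regions of Pcyt1a, Cept1 and Pemt reach 19.41, 21.68 and 28.64, and Slc5a7 and Chpt1 are empty.

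Among the transporters, Slc44a1 (ENSMUSG00000028412.17, plus strand of chromosome 4, 53440413 to 53622478), the choline transporter-like protein found in most cell types, had 2 regions. The first, 53439964 to 53440132, ended 281 bp before the gene's start and scored 4.60 in the authors' deposited table. Its GC content was 69.8%. The second, 53543690 to 53543831, overlapped coding exon 10 of Slc44a1-201 and scored 3.73 in the authors' deposited table, where 6.13% of the list scored lower.

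Slc44a2 (ENSMUSG00000057193.8, plus strand of chromosome 9, 21320698 to 21355028), a second member of this carrier family, had 3 regions, all in intron 1 of Slc44a2-207. The region nearest a start, 21321477 to 21321629, lay 729 bp from it and scored 5.38 in the authors' deposited table. Another annotated gene, Gm39302, also has a start within 1 kb of this region. The other two, 21333069 to 21333228 and 21333768 to 21333967, lay close together and scored 7.85 and 5.08 in the authors' deposited table. They are 4600 and 3861 bp from the nearest start of the gene and hold 1 CpG site each.

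Slc5a7 (ENSMUSG00000023945.7, minus strand of chromosome 17, 54273590 to 54299034) had no region of either level. The nearest 70 µM region lay 81.4 kb from the gene and the nearest 5 µM region 1977 kb. Of all protein-coding genes, 14.4% were at least as far from a 70 µM region. Its RefSeq promoter, which is 250 bases before to 50 after the start, has 1 CpG site, against a median of 7 over 32851 RefSeq promoters. Of the other markers of cholinergic neurons, Chat had a 70 µM region within its span plus 5 kb, Slc18a3 and Isl1 had none, and 0 had one within 1 kb of a start.

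Of the choline kinases, Chka (ENSMUSG00000024843.15, plus strand of chromosome 19, 3851773 to 3894369) had 1 region, 3852022 to 3852153, on exon 1, partly 5′ UTR and partly coding sequence. It scored 4.11 in the authors' deposited table and was 68.9% GC. The noncoding gene Gm16066, on the opposite strand, also has a start within 1 kb of it. Chkb (ENSMUSG00000022617.15, minus strand of chromosome 15, 89426360 to 89429908), the kinase whose loss causes a muscular dystrophy in mice, had 3 regions. They scored 5.33, 3.56 and 3.94 in the authors' deposited table, from the 5′ to the 3′ end. The first overlapped exon 2 and the next exon 4 of Chkb-201, while the last, 89426364 to 89426528, covered the 3′ UTR and lay 501 bp from a start of Cpt1b, the muscle carnitine palmitoyltransferase gene downstream. The annotation also holds Gm44502, a gene model that spans both Chkb and Cpt1b. A further annotated gene, C730034F03Rik, has a start within 1 kb of the regions at exon 2 and exon 4. The last region is closer to a start of Cpt1b than to one of Chkb, from which it is 631 bp away. By that distance it counts as a start-site region, although its midpoint lies 3462 bp from the 5′ end of the gene. Chkb has 9 annotated starts, and all 3 of its regions fall in the start-site class. At 2.21 regions per 10 kb of interval, Chkb was denser than 94.2% of protein-coding genes, while its count of 3 was higher than that of 70.3%.

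The genes of the CCT enzymes differed in their number of regions. Pcyt1a (ENSMUSG00000005615.15, plus strand of chromosome 16, 32430921 to 32475070) encodes the enzyme that sets the pace of the Kennedy pathway in most cells and had 8 regions, more than 95.8% of protein-coding genes. At 1.48 regions per 10 kb of interval, Pcyt1a was denser than 88.0% of them. Pcyt1b (ENSMUSG00000035246.16, plus strand of chromosome X, 93654863 to 93749951), the isoform known from brain and gonads, had 1.

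At Pcyt1a, 3 regions flanked the starts. They scored 5.59 upstream (32430395 to 32430621), 4.02 (32431371 to 32431498) and 5.16 (32431697 to 32431864) in the authors' deposited table, the last 2 within intron 1 of Pcyt1a-201, where the 4.02 region also overlaps a 5′ UTR of another transcript. The RefSeq promoters of the gene, with up to 33 CpG sites, lie between the upstream region and the next and overlapped 0 regions. Away from the starts there were 5 regions. In the authors' deposited table the scores were 18.36 in intron 1 (32451138 to 32451350), 4.90 in intron 2 (32452885 to 32453031), 19.41 in intron 3 (32456189 to 32456372), 14.02 at exon 9 (32471278 to 32471397) and 4.09 downstream of the gene (32478089 to 32478302). The intron 3 region lies within 1 kb of a start of 2210020O09Rik, another annotated gene. The downstream region lies within the span of Slc51a, on the opposite strand, and closer to a start of that gene (9401 bp) than to one of Pcyt1a (15149 bp).

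The single region of Pcyt1b, 93701071 to 93701195, lay in intron 1 of Pcyt1b-201, 25969 bp from the nearest start, and scored 4.66 in the authors' deposited table. Its RefSeq promoters hold 2 and 9 CpG sites.

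For the last step, Chpt1 (ENSMUSG00000060002.14, minus strand of chromosome 10, 88452745 to 88504073), the cholinephosphotransferase of the Golgi, had no region. Chpt1 was the one gene of the 10 with a 5 µM region nearer than any 70 µM region: 73.4 kb away near a start of Gnptab, against 227 kb to the nearest 70 µM region, at Arl1. Of all protein-coding genes, 6.53% were at least as far from a 70 µM region. Its promoter has 29 CpG sites and a GC content of 75.3%, close to those of Chka (33 sites, 68.7%), which had a start-site region.

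Cept1 (ENSMUSG00000040774.15, minus strand of chromosome 3, 106502260 to 106547802) encodes the choline/ethanolaminephosphotransferase of the endoplasmic reticulum and had 3 regions. The one at its start, 106547680 to 106547865, covered the 5′ UTRs of Cept1 and of the divergent gene Dram2 and scored 4.63 in the authors' deposited table. A second, 106548880 to 106549004, scored 11.25 in the authors' deposited table and lay 1078 bp upstream of Cept1 and 999 bp from a start of Dram2. The strongest, at 21.68 in the authors' deposited table, lay 384 bp beyond the 3′ end of Cept1, at 106501737 to 106501876, wholly within a UTR of Dennd2d, a gene on the opposite strand whose end overlaps that of Cept1.

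Pemt (ENSMUSG00000000301.16, minus strand of chromosome 11, 59970614 to 60046489) had 5 regions and the highest scores of the route. At exon 1 of Pemt-201 the regions 60046473 to 60046660 and 60046227 to 60046390 scored 5.95 and 3.50 in the authors' deposited table. In the introns, the authors' deposited table gives 23.33 (60038743 to 60038922, intron 1), 28.64 (60033842 to 60034071, intron 1) and 20.60 (60028178 to 60028553, intron 2). This 28.64 was higher than 99.8% of the list. At 376 bp the last of these was the widest of the 26. The 2 RefSeq promoters in the table for Pemt start within the gene, hold 2 and 3 CpG sites and overlapped 0 regions.

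The scores thus differed by place at the limit of 1 kb, though the classes overlapped. The 12 regions within 1 kb of a start of their own gene scored from 3.50 to 5.95 in the authors' deposited table, with a median of 4.62, and 0 of them reached the list median. Over the whole list, 70 µM regions within 1 kb of a protein-coding start had a median of 4.99 in the authors' deposited table; 26.2% reached the list median. The 14 other regions of the route scored from 3.73 to 28.64 in the authors' deposited table, with a median of 12.64, and 9 of them reached the list median (64.3%). Of these 14, 5 scored under 6 in the authors' deposited table, as all 12 start-site regions did. The 11.25 region of Cept1 and the 23.33 region of Pemt lay just past the limit, 1078 and 1247 bp from the nearest start of their genes. A limit of 2500 bp would count both as start-site regions. Over the whole list, 70 µM regions elsewhere had a median of 8.70 in the authors' deposited table, and 59.5% reached the list median. The classes differ in 1 respect: at the route a start is one of the gene itself, and over the list one of any protein-coding gene, by which the 11.25 region of Cept1, 999 bp from a start of Dram2, would count as a start-site region. Lower scores near starts are a property of the whole list, and regions of 1 gene are not independent of each other. Of the 7 regions of the route at 14 or more in the authors' deposited table, 3 were at Pcyt1a, 3 at Pemt and 1 at Cept1.

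**Figure D2:**
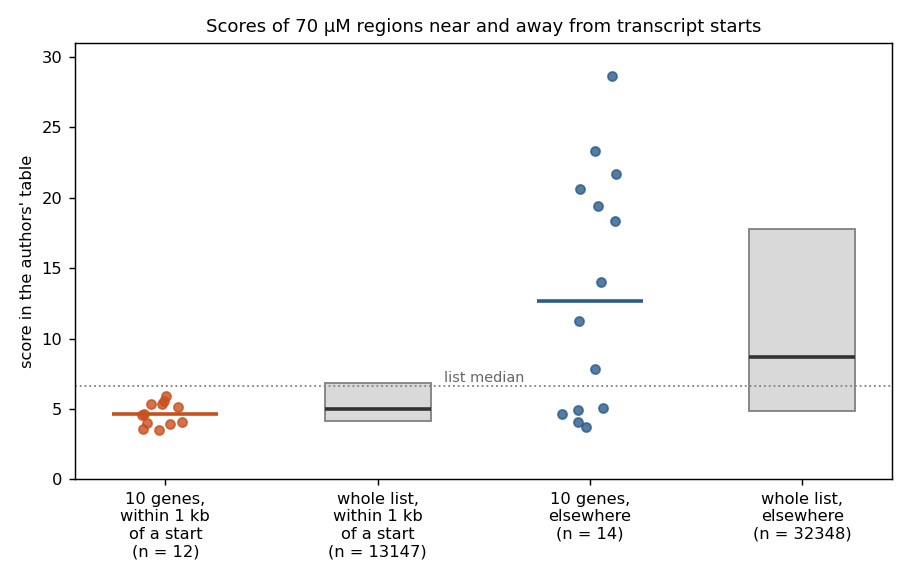
Scores in the authors' deposited table (vertical axis) of the 70 µM regions at the 10 genes (points, with the median as a line) beside all 70 µM regions of the list (grey box from the lower to the upper quartile, with the median as a line), within 1 kb of a start and elsewhere. The 12 start-site points lie below the dotted list median of 6.64, and the 14 others range from 3.73 to 28.64.

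Base composition also differed by place at the median, though the classes overlapped. GC content ran from 36.9% to 69.8% in the start-site regions of the route and from 31.2% to 61.7% in its other regions. Start-site regions of the route had a median GC content of 58.5% and 9 CpG sites, against 48.2% and 1 in the other regions of the route. Over the whole list these medians were 54.7% and 6 within 1 kb of a protein-coding start, against 48.9% and 2 elsewhere. The 4 regions with over 8 CpG sites per 100 bp were those of Slc44a1 (10.7), Chka (10.6), Cept1 (8.60) and Pemt (8.54) next to their starts. No region away from a start exceeded 1.86.

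Repeats were present in some high-scoring introns. More than 50% of bases were soft-masked as repeats in 3 of the 26 regions (11.5%), against 13.9% of the list. These were the 18.36 and 19.41 regions of Pcyt1a and the 23.33 region of Pemt, by the scores in the authors' deposited table. Of all 32-base words of the 26 regions, those of 24 regions occurred once in the assembled chromosomes. In the intron 3 region of Pcyt1a, 12.4% of the words occurred elsewhere too, up to 4 times in all, and in the 23.33 region of Pemt 50.3% did, up to 27123 times. Nothing in the sources used here says how reads with several matches were treated, and the part of repeats in these scores was not tested. The 28.64 and 20.60 regions of Pemt and the 18.36 and 14.02 regions of Pcyt1a had no repeated word.

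**Figure D3:**
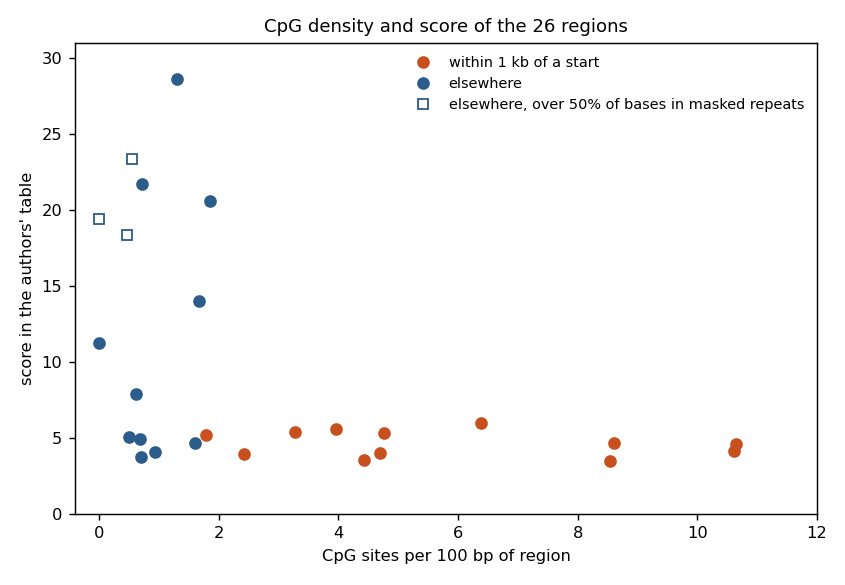
Score in the authors' deposited table (vertical axis) against CpG sites per 100 bp (horizontal axis) for the 26 regions. Start-site regions (orange) spread along the CpG axis to 10.7 at scores under 6, and other regions (blue) spread along the score axis to 28.64 at 1.86 CpG sites per 100 bp or fewer, with open squares for the 3 regions that are mostly masked repeat.

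The CpG content of promoters went with start-site regions across all genes. Among 16539 protein-coding genes with a RefSeq promoter, the share with a 70 µM region within 1 kb of a start was 7.94% at 0 to 4 CpG sites, 32.6% at 5 to 14, 57.9% at 15 to 24 and 63.6% at 25 or more. Of the route, Slc44a1, Chka, Pcyt1a, Chpt1 and Cept1 have 25 or more, and 4 of these 5 had a start-site region. Slc5a7 and Pemt fall in the lowest class by this table. Slc5a7 had no start-site region. For Pemt the class describes internal promoters only, since the table used here gives none at the 5′ end of the gene, where its start-site regions hold 14 and 12 CpG sites.

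Short motifs were searched on both strands in the central 120 bp of each region and in the RefSeq promoters. The region counts below hold for that window only. The printed sequences also have matches not wholly inside it, TGANTCA upstream of Pcyt1a and CCAAT in intron 1 of Pemt. Promoters were matched for all 10 genes, for Pemt only the internal ones. A gene counts if any of its promoters has a match, whereas the shares over all RefSeq promoters are of single promoters. The promoter counts and shares are therefore not in like units. A match is a description of letters and not a binding site. GGGCGG, the GC box of Sp1 and Klf factors, was in 5 of 26 regions, at Chka, Chkb, Pcyt1a and Pemt, against 6.03% of the list. Of these, 4 were among the 12 start-site regions, against 14% of 70 µM regions of the list within 1 kb of a protein-coding start, and 1 was among the 14 others. In the RefSeq promoters it was found for 7 of the 10 genes, all but Slc5a7, Pcyt1b and Pemt, and in 35.7% of all RefSeq promoters. CCAAT (NF-Y) was in 2 regions, both at Pcyt1a (13.8% of the list), and in promoters of 7 genes (37.4% of all promoters). CCGGAA (ETS) was in 2 regions, both at Pemt (2.60% of the list), and in promoters of 3 genes, Slc44a2, Chkb and Pcyt1a (14.9%). TATAAA was in 1 region, at Pcyt1a (5.48% of the list), and in promoters of Slc5a7 and Chkb (13.6%). TGANTCA (AP-1) was in 1 region, at Cept1 (3.33% of the list), and in the promoter of 0 genes (7.81%). CACGTG, the E-box, and TGACGTCA, the CRE, were in 0 regions (1.70% and 0.100% of the list) and 0 of these promoters (7.15% and 1.79%).

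The rest of the pathway was covered by a list of 29 other genes. Of these, 23 had a 70 µM region (79.3%), 15 had one within 1 kb of a start, 0 had a 5 µM region and 20 had a region at or above the median score. Over all protein-coding genes these shares were 60.7%, 39.2%, 1.75% and 43.6%, in the same order. They held 84 regions, with a median of 3 per gene, against 2.5 for the 10 genes of the route. These counts are a description only.

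Among other choline carriers 5 of 6 had a 70 µM region, and 1 of them, Flvcr1, which encodes a choline transporter first described as a haem exporter, had one near a start. In the authors' deposited table the organic cation transporter gene Slc22a2 (21.80) and Slc44a5 (19.01) came first. Flvcr2 had none. In the ethanolamine and serine branches 6 of 7 genes had one, led in the authors' deposited table by Pisd, which decarboxylates phosphatidylserine (24.94), and Ptdss2, a phosphatidylserine synthase gene (16.18), and the ethanolamine kinase gene Etnk2 had none. Diacylglycerol supply had 9 of 12, with top scores in the authors' deposited table at the acyltransferase gene Agpat1 (27.35, with 9 regions) and the lipin gene Lpin2 (20.96), and Agpat2, Lpin1 and Lpin3 had none. Of the reacylation enzymes 3 of 4 had one, led in the authors' deposited table by Lpcat3 (19.01) and Lpcat4 (12.94), and Lpcat2 had none. The value 19.01, as at Slc44a5 and Lpcat3, is the commonest exact score of the authors' deposited table, and 0 of the 26 regions of the route carried it.

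**Figure D4:**
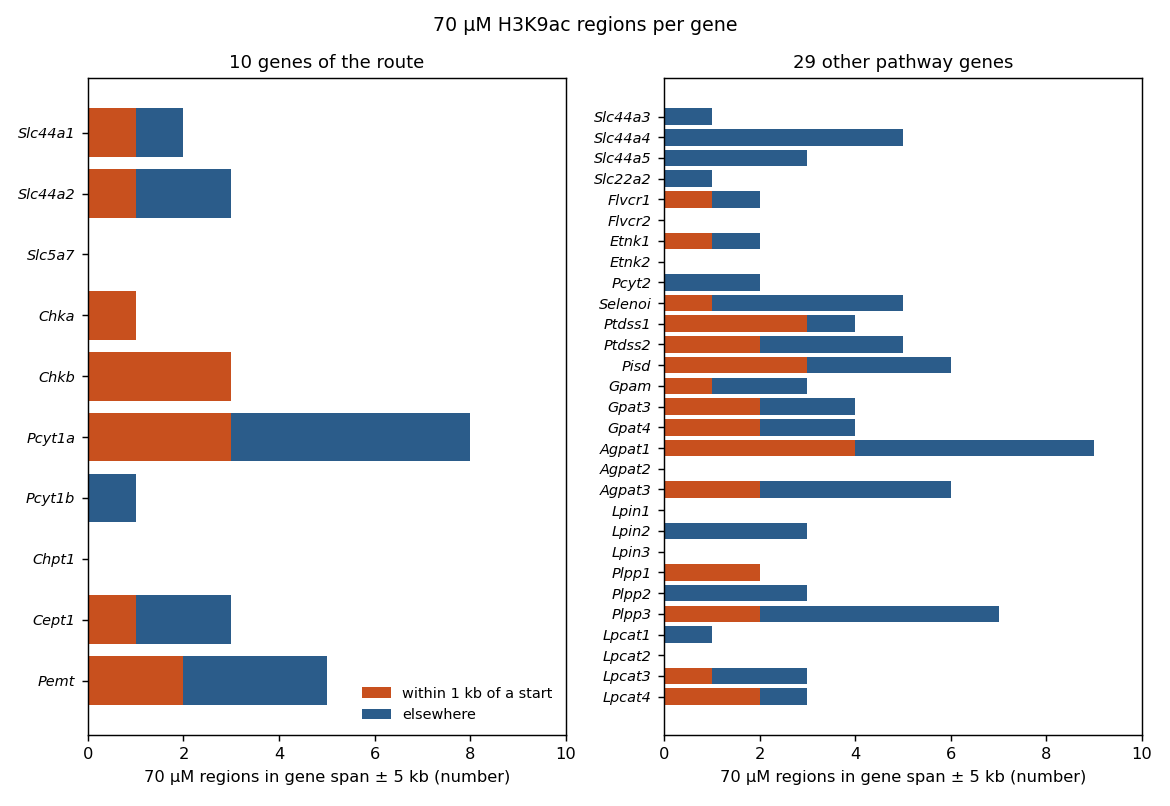
Number of 70 µM regions in each gene span plus 5 kb (horizontal axis), for the 10 genes of the route and the 29 other pathway genes, split into regions within 1 kb of a start (orange) and elsewhere (blue). Pcyt1a leads the route with 8 regions and Agpat1 the other genes with 9, and genes without a bar had no region.

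The limit of 5 kb sets some of these counts. Of the 26 regions, 5 count only through the added 5 kb. They lay 281 bp before Slc44a1, 300 bp before and 3019 bp beyond Pcyt1a, and 1078 bp before and 384 bp beyond Cept1. Their scores in the authors' deposited table were 4.60, 5.59, 4.09, 11.25 and 21.68, in that order. By the gene span alone Slc44a1 keeps 1 region, Pcyt1a 6 and Cept1 1. Just outside it, between 5 and 10 kb, were 5 regions, all at 70 µM: 5290 bp beyond and 8849 bp before Cept1 (4.99 and 4.01 in the authors' deposited table), 6565 bp beyond Chkb (21.72), 8743 bp beyond Pemt (11.72) and 9869 bp beyond Chka (13.52). The nearest 5 µM regions on the same chromosomes lay between 73.4 kb (Chpt1) and 37443 kb (Pcyt1b) from the genes.

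The labelled cell type was set against marker genes. A 70 µM region within 1 kb of a start was present at 3 of 10 neuronal markers (Rbfox3, Syn1 and Eno2), 2 of 4 for astrocytes, 1 of 4 for oligodendrocytes, 1 of 4 for microglia and 4 of 5 for fibroblasts, against 39.2% of all protein-coding genes. Within the span plus 5 kb the counts were 7 of 10 for neurons, 2 of 4 for astrocytes, 2 of 4 for oligodendrocytes, 3 of 4 for microglia and 5 of 5 for fibroblasts, against 60.7%. A 5 µM region lay within 1 kb of a start at 1 neuronal marker, Eno2, and 1 fibroblast marker, Col1a2, against 0.880% of all protein-coding genes. Since regions shared by both levels are not listed, a marker without a region is not shown to lack H3K9ac.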

How the data were processed

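H3K9ac ChIP and input DNA libraries of HT22 cells were sequenced by the authors. The tools named in the submitters' processing notes are MACS2, Bowtie 1.0.0 and CASAVA 1.8, with mm10 as the build. Per the series' design text, peaks were called with default settings against input, and bdgdiff of MACS2 then called regions that differed between the choline levels. Per the file headers, the one deposited list holds regions unique to either condition; its score is the authors' deposited value per region. Scaling between libraries and depth are not given in the sources used here; counts of regions therefore have no precision from depth.

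Regions were set against GENCODE M21 and RefSeq GRCm38.p6 on chromosomes 1 to 19, X and Y (Python 3.11.15, numpy 2.4.6, pysam 0.24.0, samtools 1.23.1, matplotlib 3.10.9), counting positions from 1 and any overlap of 1 bp. Start-site regions lie within 1000 bp of any annotated transcript start. No test was run, since a choline level has at most 1 ChIP library. The overlap counts were checked on simulated regions. All 10 genes are named, and in each part of the list of other genes the 2 with the strongest regions and those without any; 1 further gene of that list is not reported here and is left out of its counts. Members and lists were chosen with earlier results of these data known. Other flanks, windows, overlaps and score limits were tried.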

Additional observations from a re-analysis of the deposited data

How the results depend on the processing

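Limited to regions with a score at or above the list median, 4 of the 10 genes kept a 70 µM region (43.6% of all protein-coding genes), 9 regions remained at them and 0 genes had one within 1 kb of a start (14.3% of all protein-coding genes). That setting takes out regions by construction. Under the other settings the count of genes with a 70 µM region stayed at 8 (gene span alone, 10 kb added, region midpoints, without the 2 commonest scores, protein-coding transcripts only), against 51.9% to 65.3% of all protein-coding genes. The number of regions ran from 21 (gene span alone) to 31 (10 kb added). Genes with a start-site region were 6 with 500 bp windows, where Slc44a2 was lost (32.2% of all protein-coding genes). They were 7 with 2500 bp (46.2%), the 5′-most start alone (32.2%), midpoints (38.3%) or without the 2 commonest scores (38.6%). A 5 µM region was present at 0 of the 10 genes in each of these settings. The share over all protein-coding genes is known only for the main setting, 1.75%, so 0 of 10 says little about the route. Of the 29 other pathway genes, 20 (scores at or above the median) to 24 (10 kb added) had a 70 µM region. The shares of all protein-coding genes in these settings were 43.6% and 65.3%. No paired analysis was possible because the list holds no values per library; for the same reason no library could be left out. Depth limits are unknown.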
